A study of Mus musculus with 2 samples.

Results

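The amyloid precursor family and the enzymes that cut it were described in mouse cortex through 9 genes of 55536 annotated genes: App, Aplp1, Aplp2, Adam10, Bace1, Bace2, Ncstn, Psen2 and Apbb1. They were chosen by name from knowledge of the pathway, with earlier results of these data known, and each symbol matched 1 gene in the tables. Total RNA was sequenced from the left cerebral cortex of 2 males of B6CASTF1/J, the first-generation hybrid of C57BL/6J and CAST/EiJ, at an age of 10 days. The animals came from The Jackson Laboratory, were not described as treated, and formed 1 group with 1 library each, called replicate 1 and replicate 2. Each library started from 300 ng of RNA with ERCC spike-ins, which are synthetic control RNAs. The labels number the animals separately but give both libraries the same donor identifier, so the spread between them may not hold all of the variation between animals. With 1 group there was no comparison between conditions and no p-value.

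App encodes a transmembrane protein that is cut in sequence. An alpha-secretase, chiefly ADAM10 in neurons, cuts inside the amyloid-beta stretch and releases a soluble ectodomain. The beta-secretase BACE1 cuts at the start of that stretch, and gamma-secretase, a membrane complex of a presenilin, nicastrin and smaller subunits, then frees the amyloid-beta peptide and the cytoplasmic tail. APLP1 and APLP2 are paralogues that are shed by the same kinds of enzyme but lack the amyloid-beta sequence. APBB1, also called FE65, binds the cytoplasmic tail.

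The forms of these proteins differ by small exons, and the sequences of 7 of them are shown because the splicing results turn on them. All were read from the GENCODE M21 transcript sequences on the mouse genome mm10, 5′ to 3′ on the gene's strand. In the first pair, capitals mark the in-frame cysteine codons of the exon that encodes the Kunitz protease inhibitor domain, at chr16:85043576-85043743 (minus strand) in App and at chr9:31167561-31167728 (minus strand) in Aplp2.
App Kunitz exon: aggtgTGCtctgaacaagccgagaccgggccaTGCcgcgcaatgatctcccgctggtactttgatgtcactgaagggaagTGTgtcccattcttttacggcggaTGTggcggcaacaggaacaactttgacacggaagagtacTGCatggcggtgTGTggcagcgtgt
Aplp2 Kunitz exon: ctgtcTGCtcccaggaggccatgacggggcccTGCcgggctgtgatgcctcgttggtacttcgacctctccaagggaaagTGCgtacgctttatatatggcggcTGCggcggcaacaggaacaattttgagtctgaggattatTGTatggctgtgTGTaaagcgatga
Both exons were 168 bases long, 114 bases (67.9%) were identical without gaps, and all 6 cysteine codons lay at the same places.

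The next 3 exons alter the ectodomain. They are the 57-base exon of App at chr16:85040251-85040307, which follows the Kunitz exon, the 54-base exon of App at chr16:84971408-84971461, and the 36-base exon of Aplp2 at chr9:31156190-31156225, all on the minus strand. Capitals mark the exon between 12 bases of each neighbouring exon.
App 57-base exon: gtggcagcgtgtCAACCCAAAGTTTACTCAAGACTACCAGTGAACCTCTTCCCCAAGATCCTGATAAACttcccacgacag
App 54-base exon: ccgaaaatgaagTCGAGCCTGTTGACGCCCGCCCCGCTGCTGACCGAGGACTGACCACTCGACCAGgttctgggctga
Aplp2 36-base exon: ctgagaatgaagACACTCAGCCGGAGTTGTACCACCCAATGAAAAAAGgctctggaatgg
Leaving out the 54-base exon of App or the 36-base exon of Aplp2 joins the flanking exons as follows, with capitals for the downstream exon.
App 54-base exon left out: ccgaaaatgaagGTTCTGGGCTGA
Aplp2 36-base exon left out: ctgagaatgaagGCTCTGGAATGG
These junctions were identical at 18 of 24 bases, and 6 of the 7 whole codons encoded the same residue, all 6 in 1 run. In both proteins, the form without the exon is known to carry a chondroitin sulfate chain added at this junction.

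The last 2 exons lie in the beta-secretase and in the adaptor. Bace1 has a 102-base exon at chr9:45858400-45858501 (plus strand), in which capitals mark the 4 in-frame codons of the second of its catalytic aspartate motifs. Apbb1 has a 6-base microexon at chr7:105565946-105565951 (minus strand), in capitals between 12 bases of each neighbour. It adds 2 residues and is known as a neuronal exon.
Bace1 catalytic-motif exon: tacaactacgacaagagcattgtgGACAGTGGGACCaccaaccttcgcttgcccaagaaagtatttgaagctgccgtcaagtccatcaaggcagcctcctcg
Apbb1 6-base exon: ggacagtggaagAGAGAGggactttgccta

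Levels are given as TPM, a length-normalised abundance that allows genes to be compared within a library, from the first of the 2 quantifications the authors deposited unless the second is named. Errors are SDs over the 2 libraries (n = 2). Replicate 1 held 31254528 expected counts and replicate 2 held 30218308. All 9 genes reached 1 TPM in both libraries and so were called detected, as were 59.6% of nuclear protein-coding genes, and the median detected gene of that class stood at 16.3 TPM. In bulk tissue, fewer cells that express a gene and less RNA per cell cannot be told apart.

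The precursor genes stood far above every secretase. App (ENSMUSG00000022892.11, chr16:84949685-85173766, minus strand) had 555 TPM in replicate 1 and 565 TPM in replicate 2, and it ranked 52 among nuclear protein-coding genes by mean TPM. Aplp1 (ENSMUSG00000006651.8, chr7:30434982-30445535, minus strand), a largely neuronal paralogue, had 447 and 461 TPM and ranked 78. Aplp2 (ENSMUSG00000031996.17, chr9:31149557-31211815, minus strand), a broadly expressed paralogue, had 238 and 234 TPM and ranked 260. The values of these 3 genes did not overlap between the libraries, and the order App, Aplp1, Aplp2 was the same in the second quantification. The 3 genes summed to 1240 TPM in replicate 1 and 1260 TPM in replicate 2.

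Within each library App exceeded Aplp1 by a factor of 1.23 ± 0.011 and Aplp2 by a factor of 2.38 ± 0.062. The second quantification gave 1.30 ± 0.0066 for App over Aplp1 and 1.98 ± 0.030 for App over Aplp2. The size of the App to Aplp2 ratio therefore moved by more between quantifications than between libraries.

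Adam10 (ENSMUSG00000054693.14, chr9:70678997-70780229, plus strand), the main alpha-secretase of neurons, had 39.1 TPM in replicate 1 and 38.1 TPM in replicate 2. Bace1 (ENSMUSG00000032086.12, chr9:45838580-45864399, plus strand), the beta-secretase, had 51.8 and 52.1 TPM. The ratio of Adam10 to Bace1 was 0.743 ± 0.015, and 0.790 ± 0.041 in the second quantification. By gene total, the beta-secretase gene was thus the higher of the pair in both libraries. Between their full-length transcripts alone, compared after the data were seen, the order turned. Adam10-201 had 31.81 and 29.44 TPM and Bace1-201 had 21.15 and 20.64 TPM. In the second quantification Adam10-201 had 40.9 and 38.5 TPM and Bace1-201 had 24.3 TPM in each library. The order of the pair therefore depended on which transcripts were counted. App exceeded Bace1 by a factor of 10.8 ± 0.11.

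Bace2 (ENSMUSG00000040605.7, chr16:97356742-97442936, plus strand), a homologue of Bace1 that can also cut within the amyloid-beta stretch, was the lowest of the 9 genes, at 4.78 TPM in replicate 1 and 6.88 TPM in replicate 2. The ratio of Bace1 to Bace2 was 10.8 in replicate 1 and 7.57 in replicate 2, and in the second quantification it was 14.1 and 14.7. Between their full-length transcripts alone, Bace1-201 over Bace2-201, it was 16.4 and 14.6. Bace1 was thus the more abundant of the pair in each library, but the size of the ratio depended on which transcripts were counted.

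Of the gamma-secretase members, Ncstn (ENSMUSG00000003458.12, chr1:172066013-172082795, minus strand), which encodes the substrate-binding subunit nicastrin, had 38.3 TPM in replicate 1 and 39.1 TPM in replicate 2. Psen2 (ENSMUSG00000010609.15, chr1:180227004-180263438, minus strand), a presenilin and so a catalytic subunit, had 10.0 and 10.6 TPM. Ncstn exceeded Psen2 by a factor of 3.76 ± 0.084, and Psen2 lay below the median of detected genes. Ncstn and Adam10 overlapped in their values and changed places in the second quantification, so they could not be ordered. They were the only neighbours in the order of the 9 genes for which this held.

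Apbb1 (ENSMUSG00000037032.16, chr7:105558483-105581653, minus strand), the adaptor FE65, had 204 TPM in replicate 1 and 214 TPM in replicate 2. It stood just under Aplp2 and ranked 329 among nuclear protein-coding genes. App exceeded it by a factor of 2.68 ± 0.054.

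**Figure D1:**
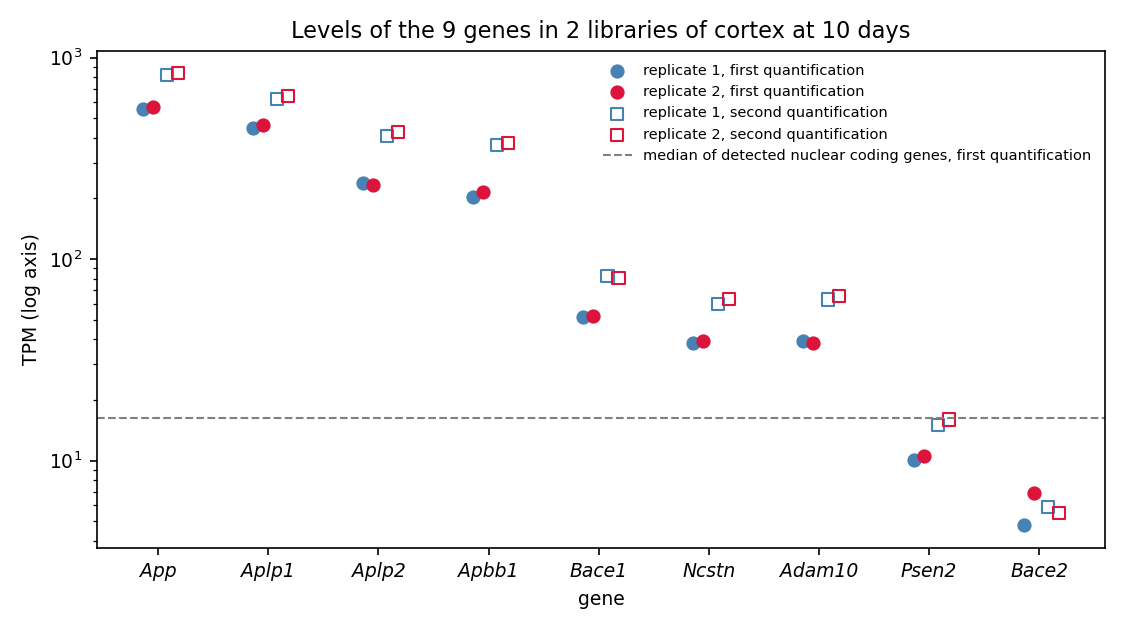
TPM of the 9 genes on a log axis, for each library (colour) in the first (filled circles) and the second quantification (open squares), ordered by mean TPM of the first. The 3 precursor genes and Apbb1 sit between 204 and 565 TPM in the first quantification, Bace1, Ncstn and Adam10 between 38.1 and 52.1, and Psen2 and Bace2 below the dashed line at the median of detected genes, 16.3.

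The second quantification gave higher TPM for 8 of the 9 genes. TPM is a share of a total, and nuclear protein-coding genes took 48.0% of the TPM of replicate 1 in the first quantification and 78.0% in the second. The median ratio of the second to the first was 1.53 over 13111 detected nuclear protein-coding genes and 1.57 over the 9 genes. Apbb1 had the highest ratio of the 9, at 1.78, and Aplp2 followed at 1.77. Bace2 had the lowest, at 0.975.

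App RNA was almost entirely the form without the Kunitz domain. The form with neither the Kunitz nor the 57-base exon, App-201, known as the main form of neurons, held 93.3% of the gene's TPM in replicate 1 and 92.8% in replicate 2. The 770-residue form, App-206, which has every alternative exon, held 1.82% and 1.71%. The 751-residue form, App-202, which has the Kunitz exon but not the 57-base exon, held 1.73% and 2.63%. The 752-residue form, App-203, lacks the 54-base exon and held 1.77% and 1.25%. The longer forms were each a minor share, and their order differed between the libraries.

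Counted by exon, the Kunitz exon of App was included in 5.58% of transcript TPM in replicate 1 and 5.94% in replicate 2. Behind these shares stood 2964 and 2938 expected counts of transcripts with the exon, against 32701 and 31810 without it. These are counts over whole transcripts, not over the exon. Of those with the exon, 1677 and 1536 were of App-206. It has 8167 bases, against 3176 for App-201, and its 3′ end lies further out, at chr16:84949685 against chr16:84954443. The adjoining 57-base exon was included in 3.83% and 3.28%, less than the Kunitz exon in each library. The 54-base exon ran the other way, with inclusion of 98.2% and 98.7%, and transcripts without it held 644 and 444 expected counts. In the second quantification these 3 exons stood within 2 percentage points of the first. By expected counts instead of TPM, mean inclusion was 8.38% for the Kunitz exon and 6.27% for the 57-base exon. The second of these was well above its share of TPM. Expected counts are not corrected for length, and the long App-206 has both exons.

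Aplp2 was split more evenly. Its 751-residue form with the Kunitz exon, Aplp2-201, held 23.2% of the gene's TPM in replicate 1 and 25.8% in replicate 2. Its 707-residue form without that exon but with the 36-base exon, Aplp2-202, held 23.8% and 24.6%. The form with neither exon, Aplp2-209, was at 0 in both libraries and both quantifications. A transcript annotated as incomplete, Aplp2-203, which holds both exons and ends in the 36-base exon, took 23.5% and 21.3%, and retained-intron transcripts took a further 29.5% and 28.3%. The complete coding forms thus made up 46.9% and 50.4% of Aplp2 TPM, against 98.6% and 98.5% for App. The complete forms of Aplp2 held less in the second quantification, 34.5% and 31.7%, with Aplp2-201 at 16.3% and 14.9% and retained-intron transcripts at 37.6% and 40.9%.

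**Figure D2:**
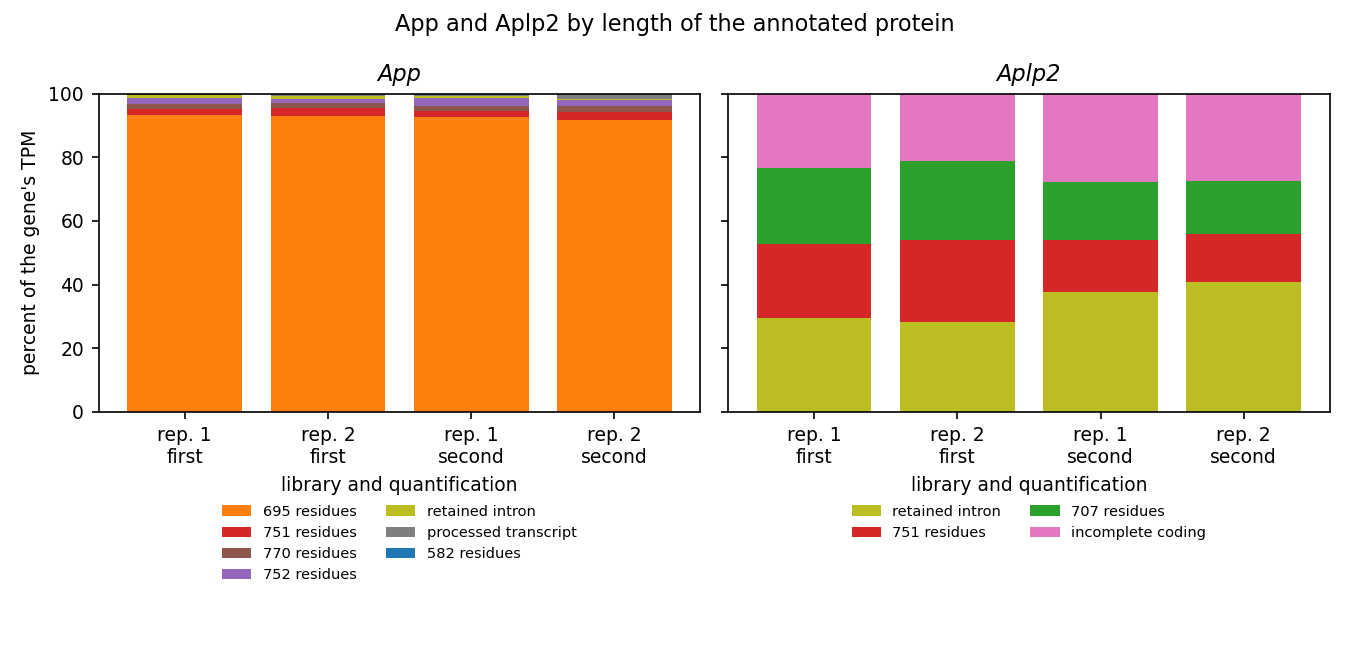
Percent of each gene's TPM held by transcripts of each annotated protein length or class, as stacked bars for both libraries and both quantifications. App is nearly 1 block, App-201, at 91.6% to 93.3%, and Aplp2 is divided among 4 classes of which none exceeds 40.9%.

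The Kunitz exon separated the paralogues. It was included in 66.3% of Aplp2 transcript TPM in replicate 1 and 65.7% in replicate 2, which is 11.5 ± 0.58 times the share in App. In the second quantification the share was 70.9% and 71.6%, and 10.7 ± 0.21 times that in App. Measured as a level, Aplp2 transcripts with the Kunitz exon had 111 and 110 TPM, and App transcripts with it had 30.6 and 33.2 TPM. Although App was the higher gene, RNA with a Kunitz exon was 3.47 ± 0.22 times as abundant from Aplp2 as from App, and 3.33 ± 0.12 times in the second quantification. The size of both contrasts depended on the measure, though not their direction. By expected counts, which are not corrected for length, the share was 7.27 ± 0.081 times and the abundance 2.06 ± 0.018 times that in App. Without the incomplete transcript Aplp2-203 they were 8.72 ± 0.16 and 1.81 ± 0.011 times.

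The 36-base exon of Aplp2 was included in 67.1% of transcript TPM in replicate 1 and 64.0% in replicate 2. This share rests partly on Aplp2-203, which is annotated only as far as that exon. Without that transcript, by a choice made after the data were seen, inclusion averaged 49.7% for the 36-base exon and 50.3% for the Kunitz exon. Both shares thus depended on how reads were divided between Aplp2-203 and the complete forms.

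Aplp1 has 1 coding transcript, Aplp1-201, of 654 residues. It held 97.0% of the gene's TPM in replicate 1 and 97.7% in replicate 2, and retained-intron transcripts held the rest.

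Bace1 was spread over 2 complete coding forms at close to equal shares. The full-length 501-residue form, Bace1-201, held 40.8% of TPM in replicate 1 and 39.7% in replicate 2. The 467-residue form, Bace1-202, held 40.9% and 39.3%. In the second quantification the full-length form held 29.4% and 30.3% and the shorter form 33.9% and 32.9%. The shorter form leaves out the 102-base exon printed above, and with it 34 residues that include a catalytic aspartate motif. The 2 transcripts also differ at the 3′ end. Bace1-201 has 6058 bases and ends at chr9:45864399, and Bace1-202 has 4041 bases and ends at chr9:45862484. The split between them thus does not rest on the exon alone, and the part of the 3′ end in it was not tested. An incomplete transcript with the exon, Bace1-206, held 11.9% and 11.8%.

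Inclusion of the 102-base exon was 59.1% in replicate 1 and 59.6% in replicate 2, and 66.1% and 67.1% in the second quantification. The difference between quantifications went with the retained-intron transcript Bace1-204, which has the exon and held 6.40% and 6.51% of TPM in the first and 22.6% and 22.4% in the second. The transcript without the exon carried 1716 and 1589 expected counts. Bace1 also overlaps 3 genes on the opposite strand, of which Rnf214 had 34.4 and 38.8 TPM, Gm49338 had 9.08 and 10.2 TPM and Gm16536 had 7.10 and 8.01 TPM. No source used here states the strand setting of the counting, so reads of Bace1 and of these genes may not be separated where they overlap.

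Adam10 was chiefly its 749-residue form, Adam10-201, with 81.4% of TPM in replicate 1 and 77.2% in replicate 2. A transcript annotated for nonsense-mediated decay, the degradation of RNAs with an early stop codon, held 16.4% and 20.7%, and 29.4% and 28.5% in the second quantification. Ncstn was chiefly its 708-residue form, Ncstn-201, with 81.8% and 80.6%, and its retained-intron transcripts held 17.3% and 17.5%. Ncstn overlaps Copa, a coat protein gene on the opposite strand that had 85.3 and 83.1 TPM. Transcripts not annotated as protein-coding, which include those for nonsense-mediated decay, were summed for each gene. They held means of 20.7 ± 3.0% of TPM for Adam10, 18.8 ± 0.79% for Ncstn, 28.9 ± 0.85% for Aplp2, 7.80 ± 2.0% for Bace1 and 39.9 ± 17.5% for Bace2. The means were 24.9 ± 1.3% for Psen2, 6.41 ± 0.58% for Apbb1, 2.64 ± 0.54% for Aplp1 and 1.44 ± 0.038% for App. The background was the 10299 detected nuclear protein-coding genes with at least 1 transcript not annotated as protein-coding. Their median was 17.0%, with quartiles of 6.46% and 34.2%. The means were, in the second quantification, 29.9% for Adam10, 33.6% for Ncstn, 39.2% for Aplp2, 22.5% for Bace1 and 66.6% for Bace2. For Psen2 the mean was 27.6%, for Apbb1 2.64%, for Aplp1 0.853% and for App 1.49%. The background median was 20.4% there, with quartiles of 7.82% and 38.9%. Adam10, Ncstn, Bace1 and Psen2 lay between the quartiles in both quantifications, and Aplp2 in the first alone. Ncstn was near the median in the first quantification alone.

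Psen2 was mostly transcripts for the 448-residue protein, which held 76.0% of TPM in replicate 1 and 70.6% in replicate 2, and 71.8% and 67.8% in the second quantification. Which of the transcripts for that protein carried the share was not stable. In the second quantification Psen2-204 held 52.5% in replicate 1 and essentially none in replicate 2, where Psen2-205 held 67.8%. The protein form can be described at this depth, of 362 and 357 expected counts, but not its individual transcripts.

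Bace2 could not be resolved into forms. Its full-length transcript for 514 residues, Bace2-201, held 27.0% of TPM in replicate 1 and 20.5% in replicate 2, yet it carried 200 and 210 of the gene's 240 and 248 expected counts. The other TPM came from short transcripts with few counts. Bace2-202, annotated for nonsense-mediated decay and of 806 bases, held 52.3% and 27.5% of TPM from 36.3 and 26.3 expected counts. In the second quantification it held 41.4% and 63.7%. Bace2-203, with a retained intron, was at 0 in the first quantification. In the second it held 28.1% in replicate 1 and essentially none in replicate 2. Bace2-204, a partial transcript of 271 bases, held 20.7% and 52.0% of TPM from 3.48 and 12.1 expected counts, and it was at 0 in the second quantification.

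The forms of Apbb1 depended on the quantification. The 710-residue form, which has the microexon, held 54.5% of TPM in replicate 1 and 48.7% in replicate 2 by the first quantification, and 27.4% and 24.9% by the second. The 708-residue form without the microexon held 8.24% and 8.04% by the first, and 21.8% in each library by the second. Incomplete coding transcripts held 6.74% and 6.15% by the first, and 29.3% and 26.5% by the second, where they exceeded the 710-residue form. Of the shorter complete forms, that of 451 residues held 9.40% and 19.4% and that of 487 residues 15.1% and 10.9% by the first. Inclusion of the microexon was 90.7% and 90.8% in the libraries by the first quantification, and 74.5% and 74.6% by the second. The libraries differed by far less than the quantifications.

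**Figure D3:**
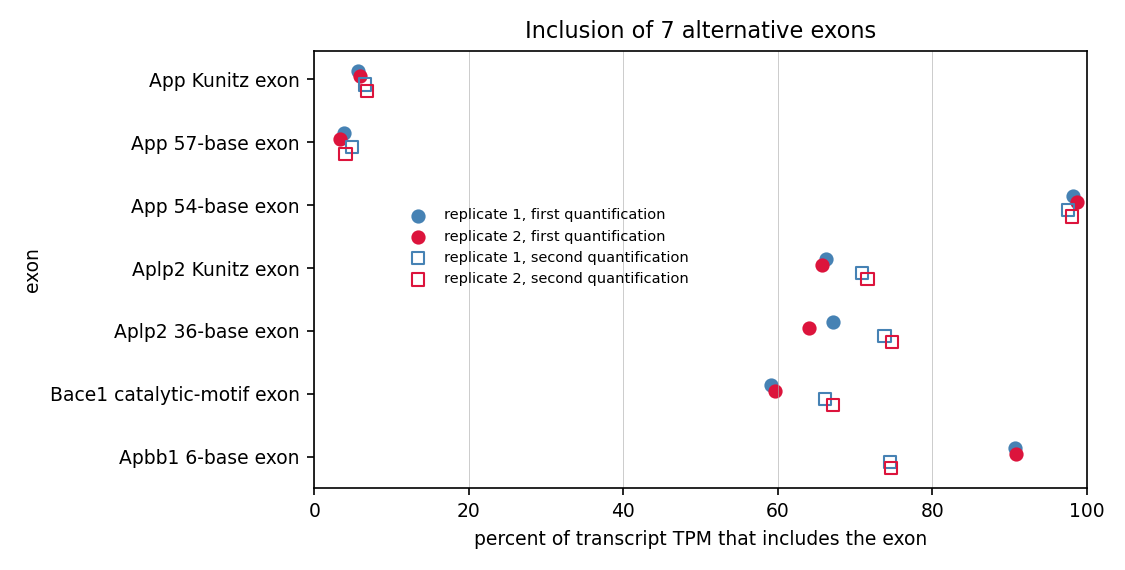
Share of transcript TPM that includes each of the 7 alternative exons, for both libraries and both quantifications. The Kunitz exon of App sits between 5.58% and 6.76% and that of Aplp2 between 65.7% and 71.6%, and the Apbb1 microexon shows the widest gap between quantifications, near 90.8% and 74.5%.

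Between the libraries, the 9 genes differed little. The log2 ratio of replicate 1 over replicate 2, on TPM plus 0.1, lay between -0.07 and 0.04 for 8 of them, and the median of the 9 was -0.03. Over the 12835 genes whose expected counts averaged at least 100, the median was -0.04, and 11.9% passed a 1.2-fold difference in either direction. Of the 9 genes, 1 passed it, which was Bace2 at -0.52. The count of 1 in 9 is close to that background.

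The ratio for Bace2 depended on the short transcripts. On expected counts scaled to the library total, replicate 1 over replicate 2 was 0.936, with a 95% Clopper-Pearson interval of 0.780 to 1.12 that covers counting error only. The full-length transcript alone gave a log2 ratio of -0.13. In the second quantification Bace2 had 5.88 TPM in replicate 1 and 5.48 TPM in replicate 2, a log2 ratio of 0.10, so the direction turned. For App, the most deeply counted member, the interval was 0.978 to 1.01.

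**Figure D4:**
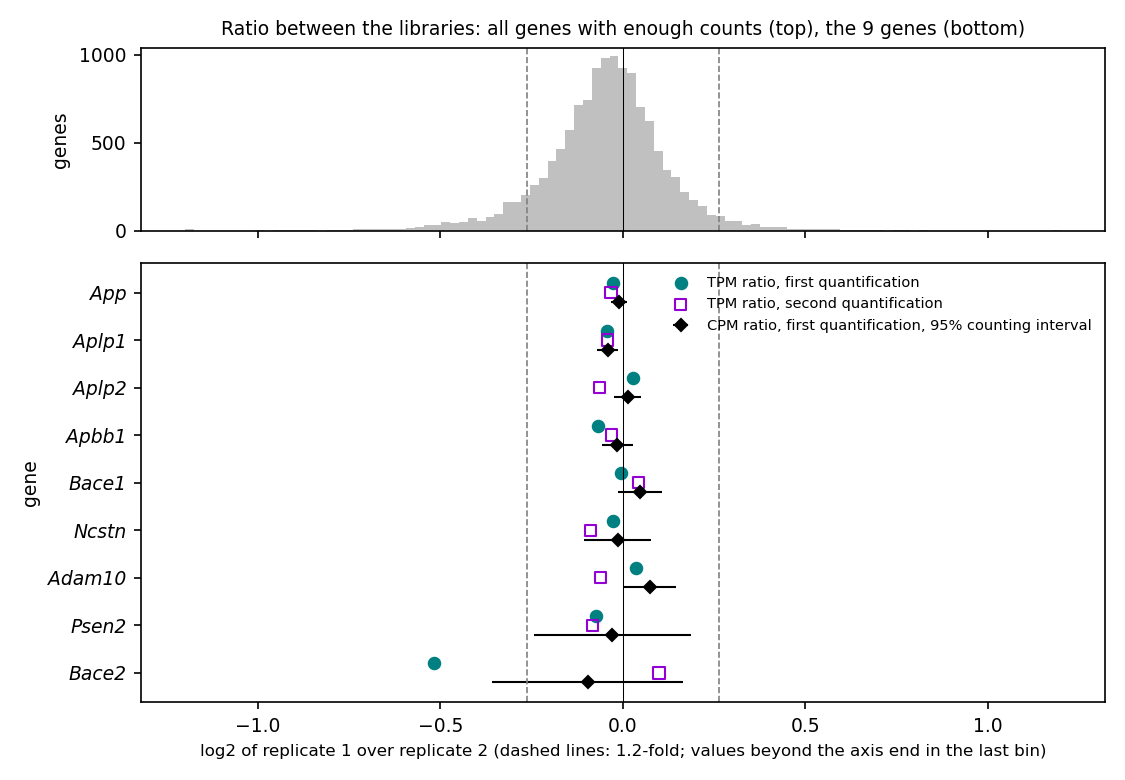
Log2 ratio of replicate 1 over replicate 2 for all 12835 genes with enough counts (histogram) and for the 9 genes (TPM ratios of both quantifications, and CPM ratios with 95% counting intervals). Bace2 alone lies beyond the dashed 1.2-fold lines, at -0.52 in the TPM of the first quantification, while its other 2 ratios lie inside them.

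The tissue label was checked with marker lists. All 5 glutamatergic neuron markers and all 4 interneuron markers were detected. None of either list passed 1.2-fold between the libraries in the first quantification. In the second, the interneuron marker Gad2 passed it, with a log2 ratio of 0.35. Summed levels of choroid plexus markers were 9.94 TPM in replicate 1 and 315 TPM in replicate 2, with none of the 6 at 0 and 1 of the 6 detected in both libraries. That gene alone held 7.35 and 304 TPM, and the other 5 summed to 2.59 and 11.6 TPM. Striatal markers summed to 110 and 71.7 TPM, with 5 of 5 past 1.2-fold, and myelinating oligodendrocyte markers to 194 and 158 TPM, with 4 of 5 past it. Of these 4, Mobp did not pass it in the second quantification, at a log2 ratio of 0.16. Erythroid markers summed to 805 and 557 TPM, with 3 of 3 past it. Over all genes with enough counts, 11.9% passed it in the first quantification and 15.0% in the second. Among markers of astrocytes, oligodendrocyte precursors, microglia, endothelial cells, and mural cells and fibroblasts, only Gfap (log2 ratio -0.38) and Col1a1 (-0.36) passed it. In the second quantification they stood at -0.39 and -0.35, and the endothelial marker Pecam1 also passed, at 0.33. The libraries therefore differed in choroid plexus, striatal, myelinating oligodendrocyte and erythroid markers. The part of these differences in the values of the 9 genes was not tested. The libraries were not 1 library deposited again. Squared differences between their counts averaged 5.06 times the sampling variance, as chi-square per degree of freedom over 18515 genes.

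The surrounding pathway was taken from 6 lists with 35 genes, of which 34 were detected and Tspan10 was at 0 in both libraries. Their median mean level was 34.1 TPM. Of the 34 with enough counts, 5 passed 1.2-fold between the libraries, beside 11.9% of all genes. Of these 5, 3 (Tspan15, Tspan33 and Apba3) also passed in the second quantification, where 15.0% of all genes did, and Aph1c and Gga3 did not. Sorl1, a sorting receptor for APP, passed in the second alone, at -0.42, as did Ece1. Of the remaining gamma-secretase subunits listed, Aph1a was the highest at 43.2 TPM in replicate 1 and 41.1 TPM in replicate 2, close to Ncstn, and Psenen, the presenilin enhancer PEN-2, followed at 38.6 and 34.8 TPM. The order turned in the second quantification, with Aph1a at 53.0 and 50.7 TPM and Psenen at 67.4 and 61.1 TPM. Aph1c was the lowest at 2.21 and 2.76 TPM, and it passed the threshold with a log2 ratio of -0.31 but not in the second quantification, at -0.17. Aph1b and Aph1c are near-identical neighbouring copies in the mouse, so the division of reads between them is uncertain.

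Both other metalloproteases with alpha-secretase activity lay below Adam10. Adam9 had 21.2 TPM in replicate 1 and 20.6 TPM in replicate 2, and Adam17, which sheds cytokines such as TNF, had 8.13 and 7.43 TPM. Among the partners of ADAM10, Tspan5, a tetraspanin that carries ADAM10 to the cell surface, led at 85.9 and 88.3 TPM. Tspan15, of the same family, had 3.57 and 2.53 TPM, a log2 ratio of 0.48. Tspan33 had 9.50 and 11.9 TPM, a log2 ratio of -0.32. The second quantification gave log2 ratios of 0.70 for Tspan15 and -0.29 for Tspan33.

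Of the 8 adaptors of the cytoplasmic tail, Mapk8ip1, the kinase scaffold JIP1, was the highest at 193 TPM in replicate 1 and 199 TPM in replicate 2, just below Apbb1. Apba3, the broadly expressed member of the Mint family, was the lowest at 11.0 and 15.4 TPM (log2 ratio -0.48). Among 10 sorting and binding proteins Rtn3, a reticulon that binds BACE1, led at 434 and 418 TPM, and Gga3, a sorting adaptor for BACE1, had the lowest mean, at 24.0 and 29.3 TPM (log2 ratio -0.29, and -0.14 in the second quantification). Its relative Gga1 had 26.8 and 28.2 TPM, so their values overlapped, and Gga1 was the lower of the pair in the second quantification. Of the 4 peptide-degrading enzymes Ide, the insulin-degrading enzyme, was the highest at 41.7 and 44.3 TPM and Mme, neprilysin, the lowest at 5.35 and 5.01 TPM. No enzyme of the last list passed 1.2-fold in the first quantification, and Ece1, an endothelin-converting enzyme, did in the second, at -0.39.

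**Figure D5:**
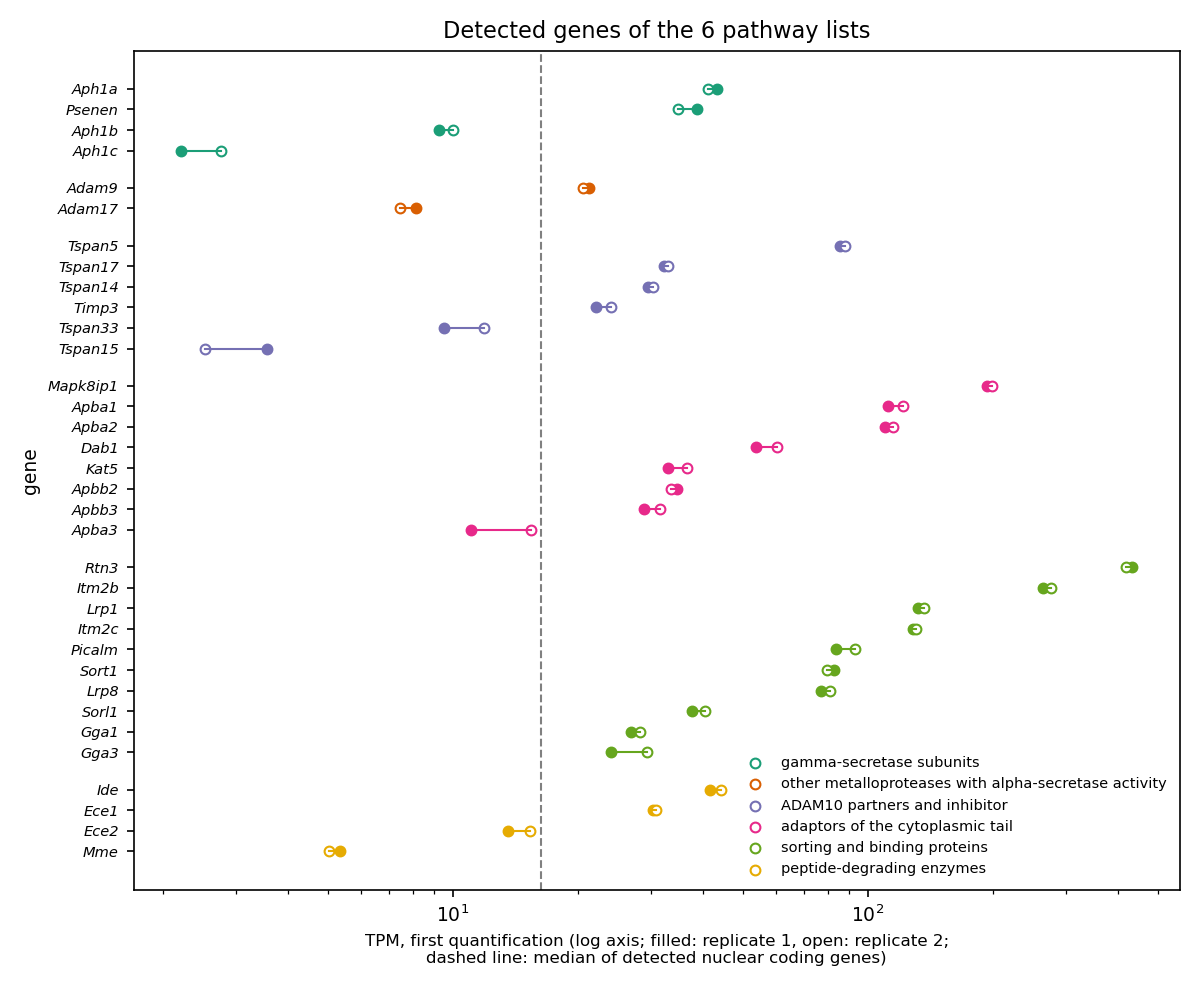
TPM of the 34 detected genes of the 6 pathway lists on a log axis, with replicate 1 filled and replicate 2 open, sorted by level within each list. Rtn3 is the highest at 434 and 418 TPM, and Aph1c (2.21 and 2.76 TPM) and Tspan15 (3.57 and 2.53 TPM) overlap at the low end.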

How the data were processed

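The authors deposited 3 tables per library, on mm10 with GENCODE M21 per the deposited descriptions. Per the file headers, the first quantification gives expected counts, TPM, the percent of each gene's TPM held by each transcript, and posterior means with interval bounds. The second gives estimated counts and TPM per transcript, summed here by gene, and lists 55450 of the 55536 genes. The layouts are those of RSEM and kallisto, but no source used here states the programs, their versions or the strand setting. The reference is 1 parental strain and alleles were not separated.

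The members and lists were chosen with earlier results of these data known. All 9 members are named. A list's highest and lowest members and any past 1.2-fold are named. Transcripts were to be named at 5% or more of the gene's TPM. Not all of these are named, and some App and Aplp2 transcripts below it are. Psenen, Gga1, Sorl1, Ece1 and the marker genes given by symbol were named after their values were seen. Exon inclusion is the TPM of transcripts with the exon over that of transcripts with or without it. Only transcripts with the annotated upstream exon were counted, and those without the exon also needed the annotated downstream exon. Other transcripts that span the exon were left out. It rests on transcript estimates, not junction reads. Ratios used TPM plus 0.1 where expected counts averaged at least 100. Scalings used edgeR 4.0.16 (TMM) and DESeq2 1.42.0 (size factors) on the deposited expected counts, with other steps in Python 3.11.15. Clopper-Pearson intervals cover counting error only, since reads carry no molecular identifiers and are not independent.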

Additional observations from a re-analysis of the deposited data

How the results depend on the processing

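No paired analysis was possible because there is 1 group. By the second quantification the share of App-201 was 92.2%, by expected counts 91.1% and among complete coding transcripts 94.4%. The Aplp2 share of forms without the Kunitz insert, 24.2% as reported, was 17.5% by the second quantification and 32.9% by counts. Exon inclusion by the second quantification averaged 6.63% for the App Kunitz exon, 4.44% for the 57-base and 97.8% for the 54-base exon, 71.2% and 74.3% for the Kunitz and 36-base exons of Aplp2, 66.6% for Bace1 and 74.5% for Apbb1. By counts it was 8.38% and 6.27% for the Kunitz and 57-base exons of App, 60.9% and 58.9% for those of Aplp2, 63.2% for Bace1 and 89.7% for Apbb1. Without Aplp2-203 the 36-base exon of Aplp2 averaged 49.7% and its Kunitz exon 50.3%, which is the complement of the same estimate. For RNA with the Kunitz exon, Aplp2 over App was 2.06 by counts and 1.81 without Aplp2-203, and for the share with it 10.7 by the second quantification, 7.27 by counts and 8.72 without Aplp2-203. The alternatives for exon inclusion and for these ratios were chosen after seeing the data. The ratios were 1.30 for App to Aplp1, 1.98 for App to Aplp2, 14.4 for Bace1 to Bace2 and 0.790 for Adam10 to Bace1 by the second quantification. The number of members past 1.2-fold was 0 under TMM scaling, DESeq2 size factors, scaling to nuclear protein-coding counts and the second quantification, where the log2 ratio of Bace2 turned to 0.10. The cause was not tested. The number past 1.2-fold stayed at 1 with a pseudocount of 0 or 1 and with no minimum count. The second quantification moved 8 of the 9 levels by more than 1 SD. With 2 libraries, leaving out either gives the value of the other, and so cannot show stability. Depth limits Bace2 and Psen2 most.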
